A study of Mus musculus with 9 samples.

Results

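The 10 genes described here encode some of the proteins of mouse telomerase (Tert and Dkc1) and the subunits of shelterin (Terf1, Terf2, Terf2ip, Tinf2, Acd, Pot1a and Pot1b). The last of them, Rtel1, encodes a helicase that works with these. They were chosen by name for their known roles, with earlier results of these data known, and all 10 were found among the 54532 genes of the expression table. The table holds RNA sequencing of cardiosphere-derived cells (CDCs), progenitor-like stromal cells that grow out of heart explants, from C57BL/6 mice, in 3 groups of 3 libraries. Primary cells (pECDCs, titled passage 0) carried no transgene and received no treatment. The study's methods give passage 3 for the primary cells of its later experiments, so their passage is uncertain. Immortalized cells (iECDCs, passage 30, untreated) carried human telomerase reverse transcriptase (hTERT), delivered by a lentivirus with the constitutively active CMV promoter and selected with puromycin. The third group is labelled as passage 30 immortalized cells given SB431542, which blocks the kinase of the type I TGF-β receptor, for 3 days, so it shares the transgene with the iECDCs, although the study's methods describe SB431542-treated libraries from an epithelial clone of pECDCs. Groups here follow the labels. Of 8 epicardial and epithelial markers, Cdh1, Krt8 and Krt18 had at most 3 counts in each treated library, and Tjp1 and Tbx18 did not pass against iECDCs (edgeR adjusted p of 0.0555 and 0.0626). The mesothelial gene Upk3b and the epicardial genes Wt1 and Tcf21 were low but higher in treated cells, at 1.28, 0.284 and 1.43 mean FPKM against 0.120, 0.0119 and 0.516 in iECDCs (edgeR adjusted p of 0.000912, 0.00615 and 0.00565). In pECDCs, Krt18 and Wt1 each had over 3 counts in at least 1 library, whereas both had at most 3 in every iECDC library. The study's discussion reports, without showing data, that pECDCs formed epithelial clones 10 days after SB431542 treatment and that these expressed Wt1 and Tcf21 again. These marker values do not settle which cells were treated. Cdkn2a, which encodes cell cycle inhibitors, was counted 407 to 562 times per pECDC library and at most 1 time in any iECDC or treated library. Barx1 had over 3 counts in at least 1 pECDC library and at most 3 in every iECDC and treated library. Both genes were listed because they told pECDCs from iECDCs in earlier results. On both, the treated libraries were like the iECDCs, and whether a clone of pECDCs would be too was not tested.

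Telomerase adds telomeric repeats to chromosome ends, with Tert as its catalytic subunit and the RNA Terc as its template, while dyskerin (Dkc1) and its partners Nhp2, Nop10 and Gar1 bind the box H/ACA domain of Terc. The same box H/ACA core also works in small nucleolar ribonucleoproteins that modify ribosomal RNA. Shelterin coats telomeric DNA and hides chromosome ends from the DNA damage response: Terf1 and Terf2 bind the double-stranded repeats, Terf2ip (Rap1) binds Terf2, Tinf2 (TIN2) bridges the subunits, and Acd (TPP1) carries Pot1a or Pot1b, which bind the single-stranded overhang. Rtel1 unwinds structures at chromosome ends. Mouse cells commonly keep some Tert expression, which many human somatic cells lose. Tert here is the endogenous mouse gene. The hTERT transgene was not analysed here, and whether its reads aligned to mouse Tert was not tested.

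Tert, Dkc1 and Gar1 are shown first by sequence. Tert and Dkc1 were the 2 of the 10 genes called between pECDCs and iECDCs. Gar1 encodes a partner of dyskerin and had the same order of group means as Dkc1, as did Nhp2 and Nop10. Gar1 itself was not called between pECDCs and iECDCs (edgeR adjusted p = 0.0914). The 250 bases before the start of each gene (RefSeq, GRCm38.p6, 5′ to 3′ on the gene's strand) are upstream of the first exon. The Tert sequence lies at chr13:73626661-73626910 on the plus strand, Dkc1 at chrX:75095604-75095853 on the plus strand and Gar1 at chr3:129831397-129831646 on the minus strand. Capitals mark GC boxes (GGGCGG on either strand) in Tert and overlapping ETS cores (CCGGAA on either strand) in Gar1.
Tert: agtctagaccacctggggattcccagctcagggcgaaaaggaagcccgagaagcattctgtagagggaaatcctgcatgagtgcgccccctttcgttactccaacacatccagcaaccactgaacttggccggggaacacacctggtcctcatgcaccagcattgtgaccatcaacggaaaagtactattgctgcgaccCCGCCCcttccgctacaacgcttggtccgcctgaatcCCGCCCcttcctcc
Dkc1: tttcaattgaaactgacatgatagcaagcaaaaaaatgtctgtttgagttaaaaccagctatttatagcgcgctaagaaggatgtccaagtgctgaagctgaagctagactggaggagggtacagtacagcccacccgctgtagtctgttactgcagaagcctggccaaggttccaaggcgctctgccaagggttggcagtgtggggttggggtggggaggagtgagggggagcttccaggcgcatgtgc
Gar1: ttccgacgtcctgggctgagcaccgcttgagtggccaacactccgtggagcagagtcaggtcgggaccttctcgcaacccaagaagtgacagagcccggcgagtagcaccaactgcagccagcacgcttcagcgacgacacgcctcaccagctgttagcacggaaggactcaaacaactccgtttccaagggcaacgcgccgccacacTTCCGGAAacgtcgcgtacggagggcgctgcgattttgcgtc

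The Tert window was 57.2% GC and held 2 GC boxes, starting 51 and 14 bases before the gene's start. The Dkc1 window was 52.0% GC and held none of the 3 motifs searched on both strands, which were the GC box, the ETS core and the E-box CACGTG. The Gar1 window was 61.6% GC and held an ETS core on each strand, the 2 matches overlapping and starting 42 and 40 bases before the start. Of the 10 genes, 9 had an entry in the RefSeq table, and Terf1 did not. A GC box was found in 4 of these 9 windows (Tert, Pot1a, Pot1b and Rtel1), against 32.7% of all 32851 windows. An ETS core was found in 4 of 9 (Tinf2, Acd, Pot1a and Rtel1), against 12.0% of all windows. An E-box was found in 0 of 9, against 6.02%. These matches describe letters, not bound sites.

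Library totals ranged from 16568306 to 23951392 counts. Levels are given as FPKM, which corrects for gene length so that genes can be compared, and tests were made on counts. iECDC replicate 3 and treated replicate 2 stood apart from their groups. A chi-square of counts per degree of freedom was 24.9 and 30.8 for the pairs with iECDC replicate 3 and 4.61 for the other iECDC pair, and it was 70.3 and 71.5 for the pairs with treated replicate 2 and 3.79 for the other treated pair. The pECDC pairs lay between 2.70 and 4.23. Summed endothelial, haematopoietic and cardiomyocyte markers did not exceed 2.04 FPKM in any library, with Pecam1, Spi1 and Myh6 among those at 3 counts or fewer, whereas the CDC surface markers Eng, Thy1, Ly6a and Cd44 summed to 244 to 308 FPKM. Nothing in the labels says that the replicates came from separate cultures or animals, and the study's methods speak of biological replicates but give another number per condition than the libraries here, so p-values measure the spread between these libraries, which may be technical.

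**Figure D1:**
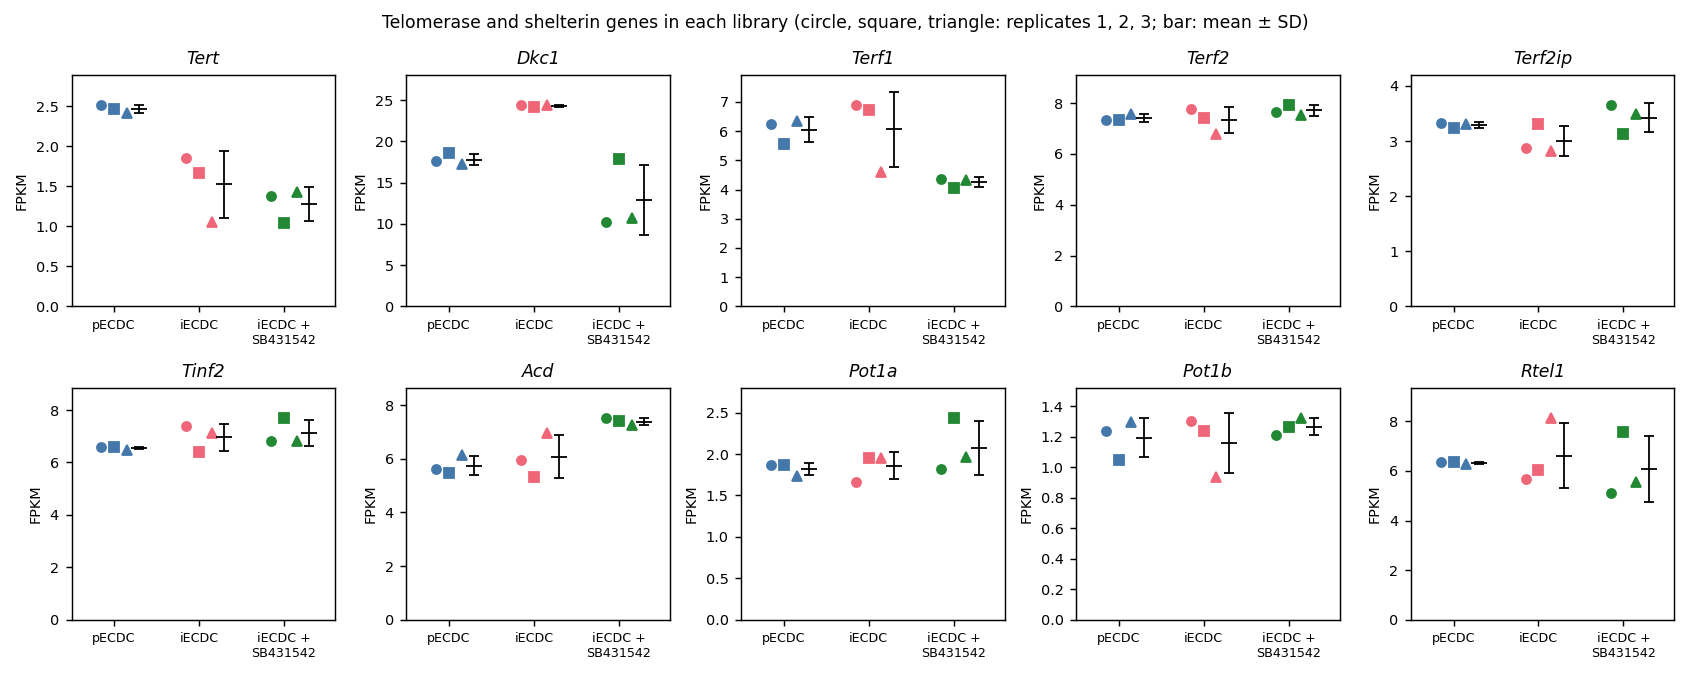
FPKM of the 10 genes (vertical axes from 0) in each library of the 3 groups, with circles, squares and triangles for replicates 1, 2 and 3 and bars for the mean ± SD (n = 3). The Tert points of the pECDCs, 2.41 to 2.52, lie above all others, and the Dkc1 points of the iECDCs, 24.2 to 24.5, lie above all others.

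Between pECDCs and iECDCs, whose expression profiles the study compared to characterize both, Dkc1 rose and Tert fell while no shelterin gene passed the test. Dkc1 was 1.35-fold higher and Tert 1.62-fold lower in the iECDCs. Of the 10 genes, 1 was higher (7.21% of the 13752 genes tested were) and 1 was lower (9.21% of all were), so neither count stood far from the background. The median log2 fold change of the 10 genes was 0.00, as it was over all genes tested. In bulk samples, fewer cells of a type and less RNA per cell cannot be told apart.

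Tert (plus strand, chr13:73626911-73649843) had 2.52, 2.46 and 2.41 FPKM in pECDC replicates 1, 2 and 3, from 354, 281 and 323 counts. It had 1.86, 1.67 and 1.06 FPKM in the iECDCs, from 215, 157 and 93 counts. All 3 iECDC libraries were below all 3 pECDC libraries, and replicate 3 was the lowest. The means were 2.47 ± 0.053 and 1.53 ± 0.42 FPKM (SD, n = 3), with a log2 fold change of -0.69 (SE 0.18) and an adjusted p of 0.0292 (edgeR quasi-likelihood fit, Benjamini-Hochberg over all genes tested). This call is close to the threshold. Without any 1 of the pECDC libraries or without iECDC replicate 2, the edgeR adjusted p was between 0.0581 and 0.110, and with iECDC replicate 3 left out it was 0.00146 with a log2 fold change of -0.49.

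Dkc1 (plus strand, chrX:75095854-75109777) had 17.6, 18.6 and 17.2 FPKM in pECDC replicates 1, 2 and 3. It had 24.5, 24.2 and 24.4 FPKM in the iECDCs. The iECDC libraries were all above the pECDC libraries. The means were 17.8 ± 0.69 and 24.3 ± 0.14 FPKM (SD, n = 3), with a log2 fold change of 0.44 (SE 0.059) and an edgeR adjusted p of 0.00149. The call was lost, at an edgeR adjusted p of 0.202, in the fit of all 9 libraries, which also holds the treated ones. That fit called 671 of all 14210 genes tested, and the cause of the loss was not tested.

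The double-strand binding subunits differed little between pECDCs and iECDCs. Terf1 had 6.25, 5.56 and 6.35 FPKM in pECDCs and 6.90, 6.71 and 4.59 FPKM in iECDCs, where replicate 3 was the lowest of the 6 libraries and the other 2 were the highest. Terf2 had 7.33, 7.32 and 7.57 FPKM in pECDCs and 7.78, 7.41 and 6.77 FPKM in iECDCs. The log2 fold changes were -0.01 (SE 0.14) for Terf1 and -0.03 (SE 0.076) for Terf2, with edgeR adjusted p of 0.984 and 0.828. Terf2ip, the partner of Terf2, had 3.33, 3.23 and 3.32 FPKM in pECDCs and 2.88, 3.31 and 2.82 FPKM in iECDCs, and its log2 fold change of -0.15 (SE 0.095) did not pass either (edgeR adjusted p = 0.326).

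The bridging and single-strand binding subunits showed the same absence of a call. Tinf2 had 6.57, 6.59 and 6.49 FPKM in pECDCs and 7.37, 6.39 and 7.13 FPKM in iECDCs, with a log2 fold change of 0.08 (SE 0.076). Acd had 5.61, 5.47 and 6.15 FPKM in pECDCs and 5.96, 5.34 and 6.95 FPKM in iECDCs, with a log2 fold change of 0.07 (SE 0.11). For both genes the iECDC libraries spanned the pECDC range. Pot1a had 1.86, 1.87 and 1.74 FPKM in pECDCs and 1.67, 1.96 and 1.95 FPKM in iECDCs, with a log2 fold change of 0.01 (SE 0.097). Pot1b had 1.24, 1.05 and 1.30 FPKM in pECDCs and 1.31, 1.24 and 0.94 FPKM in iECDCs, with a log2 fold change of -0.05 (SE 0.16). The edgeR adjusted p of these 4 genes ranged from 0.531 to 0.954. Rtel1, the helicase, had 6.35, 6.35 and 6.28 FPKM in pECDCs and 5.68, 6.04 and 8.13 FPKM in iECDCs, where replicate 3 was above and the others below every pECDC library (log2 fold change 0.05, SE 0.12, edgeR adjusted p = 0.825).

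Pot1a and Pot1b are paralogs, and reads of shared sequence may have been divided between them, so their separate levels are uncertain. Other genes lie on the opposite strand over part of a member's exons, and the strand setting of the counting is not given in the sources used here. Gmpr2 covers 31.2% of the exonic bases of Tinf2 and had 165 to 253 counts, and Carmil2 covers 33.3% of those of Acd and had 6 to 14 counts. Gm6793 covers 2.18% of those of Terf2ip and had 3077 to 8389 counts, and Mpp1 covers 1.09% of those of Dkc1 and had 868 to 1738 counts. Reads of such pairs cannot be told apart if strand was not used.

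**Figure D2:**
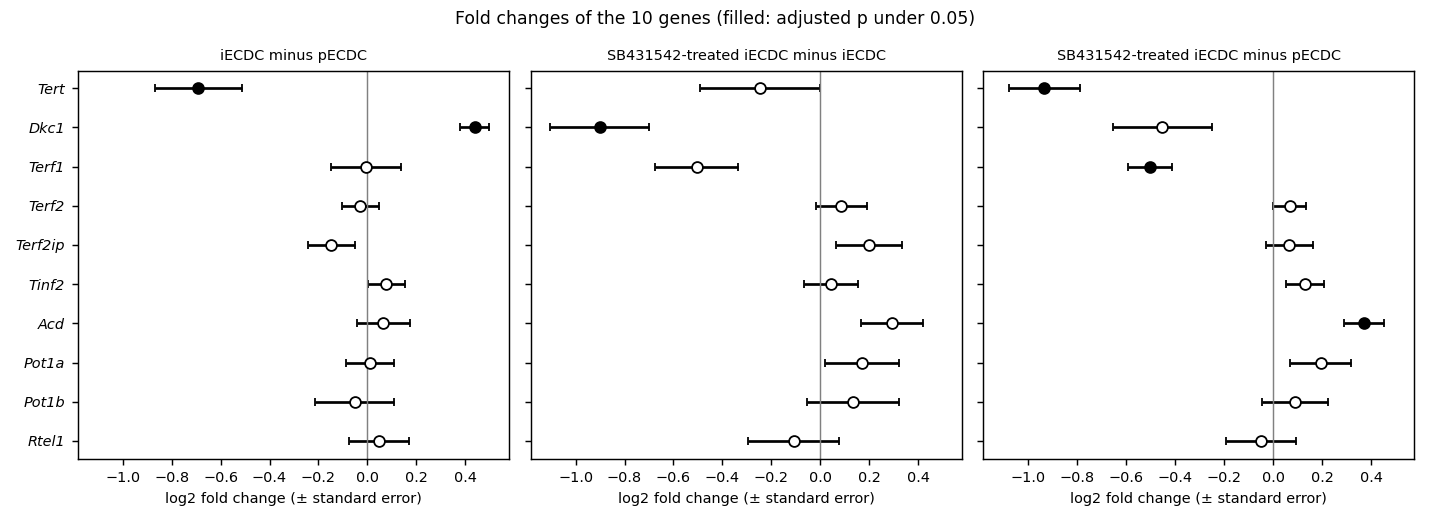
Log2 fold change ± standard error (horizontal axis) of the 10 genes in the 3 comparisons, with filled points at an edgeR adjusted p under 0.05. The filled points are Tert (-0.69) and Dkc1 (0.44) for iECDCs against pECDCs, Dkc1 (-0.90) for treated cells against iECDCs, and Tert (-0.94), Terf1 (-0.50) and Acd (0.37) for treated cells against pECDCs.

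In SB431542-treated cells compared with iECDCs, which addresses the response of the immortalized cells to TGF-β receptor inhibition by the labels, Dkc1 fell 1.87-fold and was the only one of the 10 genes past the threshold. Thus 0 of the 10 genes were higher (16.0% of the 13559 genes tested were) and 1 was lower (14.0% of all were). Without adjustment, 3 of the 10 had an edgeR p under 0.05, namely Dkc1 (0.00195), Terf1 (0.0168) and Acd (0.0481). Of all 13559 genes tested, 5889 did, so this count of 3 did not stand above the background. The median log2 fold change of the 10 was 0.06, against 0.00 over all genes tested. The treated libraries had 10.2, 17.9 and 10.7 FPKM of Dkc1 in replicates 1, 2 and 3, against 24.2 to 24.5 FPKM in the iECDCs. Every treated library was below every iECDC library, but replicate 2 lay within the pECDC range and the other 2 well below it. The log2 fold change was -0.90 (SE 0.20, edgeR adjusted p = 0.0140), and it was -1.21 without treated replicate 2 (edgeR adjusted p = 9.77e-06). Leaving out iECDC replicate 1 or 2, or treated replicate 1 or 3, put the edgeR adjusted p between 0.0513 and 0.0547.

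Terf1 had 4.36, 4.06 and 4.34 FPKM in the treated libraries, each below the lowest iECDC library at 4.59 FPKM, which was replicate 3. Its log2 fold change was -0.50 (SE 0.17), and its edgeR adjusted p of 0.0541 missed the threshold. Terf1 passed in 6 of 16 alternatives, and the highest edgeR adjusted p was 0.176, without iECDC replicate 1. With iECDC replicate 3 and treated replicate 2 both left out, an alternative added after the data were seen, its log2 fold change was -0.64 (edgeR adjusted p = 6.32e-07). That fit called 8951 of all 13867 genes tested. Acd had 7.52, 7.40 and 7.25 FPKM in the treated libraries, all above the iECDC libraries, of which the highest was 6.95 FPKM. Its log2 fold change was 0.29 (SE 0.13, edgeR adjusted p = 0.112), and 0.39 with those 2 libraries left out (edgeR adjusted p = 0.000972). Of 16 alternatives, Acd passed in this 1 only. Tert had 1.38, 1.04 and 1.43 FPKM in the treated libraries, from 139, 125 and 148 counts, which overlapped the iECDC range of 1.06 to 1.86 FPKM. The Tert log2 fold change was -0.25 (SE 0.24, edgeR adjusted p = 0.468), so a further difference was not detectable against this spread.

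The other shelterin genes and Rtel1 did not pass. Terf2 had 7.67, 7.93 and 7.54 FPKM in the treated libraries, Terf2ip 3.66, 3.14 and 3.48, and Tinf2 6.82, 7.69 and 6.84. Pot1a had 1.82, 2.44 and 1.97 FPKM, Pot1b 1.21, 1.26 and 1.32, and Rtel1 5.11, 7.57 and 5.55. Treated replicate 2 was the highest of its group for Terf2, Tinf2, Pot1a and Rtel1 and the lowest for Terf1, Tert and Terf2ip. The log2 fold changes of these 6 genes ranged from -0.11 for Rtel1 to 0.20 for Terf2ip, with edgeR adjusted p of 0.287 to 0.786.

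Compared with pECDCs, the same control libraries as in the first comparison, treated cells had lower Tert and Terf1 and higher Acd. Tert was 1.91-fold lower and Terf1 1.42-fold lower, while Acd was 1.29-fold higher. This made 1 of 10 genes higher (17.9% of the 14015 genes tested) and 2 lower (17.0% of all), and the median log2 fold change of the 10 was 0.07, against 0.01 over all genes tested. The treated Tert values were all below the lowest pECDC value of 2.41 FPKM, and the means were 1.28 ± 0.21 and 2.47 ± 0.053 FPKM (SD, n = 3). The log2 fold change was -0.94 (SE 0.14, edgeR adjusted p = 0.00365), and each of the 15 alternative settings kept it past the threshold. Terf1 was likewise lower in every treated library than in any pECDC library, at 4.25 ± 0.17 against 6.05 ± 0.43 FPKM (SD, n = 3), with a log2 fold change of -0.50 (SE 0.090, edgeR adjusted p = 0.00626) that also passed in all 15.

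Acd was higher in every treated library than in any pECDC library, at 7.39 ± 0.13 against 5.75 ± 0.36 FPKM (SD, n = 3), with a log2 fold change of 0.37 (SE 0.082, edgeR adjusted p = 0.0136). Without pECDC replicate 1 or 2 its edgeR adjusted p was 0.0725 and 0.0730. Dkc1 had a log2 fold change of -0.45 (SE 0.20) and did not pass (edgeR adjusted p = 0.123), and without treated replicate 2 it was -0.76 with an edgeR adjusted p of 1.31e-09. Rtel1 stood at -0.05 (SE 0.14, edgeR adjusted p = 0.811) and passed only without that library (edgeR adjusted p = 0.00324). The remaining 5 genes, Terf2, Terf2ip, Tinf2, Pot1a and Pot1b, had log2 fold changes of 0.06 to 0.19 and edgeR adjusted p of 0.231 to 0.633. The 3 comparisons share libraries pairwise, so their values are not independent of each other.

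Summed over its 7 genes, shelterin RNA was at 32.1 ± 0.92 FPKM in pECDCs, 32.5 ± 1.4 FPKM in iECDCs and 33.2 ± 0.61 FPKM in treated cells (SD, n = 3), which differed by about the spread between libraries. Its make-up was described with no test. Terf1 made up 18.9 ± 0.85% in pECDCs, 18.6 ± 3.4% in iECDCs and 12.8 ± 0.73% in treated cells (SD, n = 3). Acd made up 17.9 ± 0.69%, 18.8 ± 3.1% and 22.2 ± 0.47% in the same order. By group mean, Terf2 was the most abundant subunit in every group, at 22.5% to 23.2% of the sum, and Pot1b the least, at 3.56% to 3.81%. In iECDC replicate 3, Tinf2 (7.13 FPKM) and Acd (6.95 FPKM) were above Terf2 (6.77 FPKM). The ratio of Pot1b to Pot1a was 0.658 ± 0.094 in pECDCs, 0.632 ± 0.15 in iECDCs and 0.620 ± 0.088 in treated cells (SD, n = 3), within the spread between libraries.

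**Figure D3:**
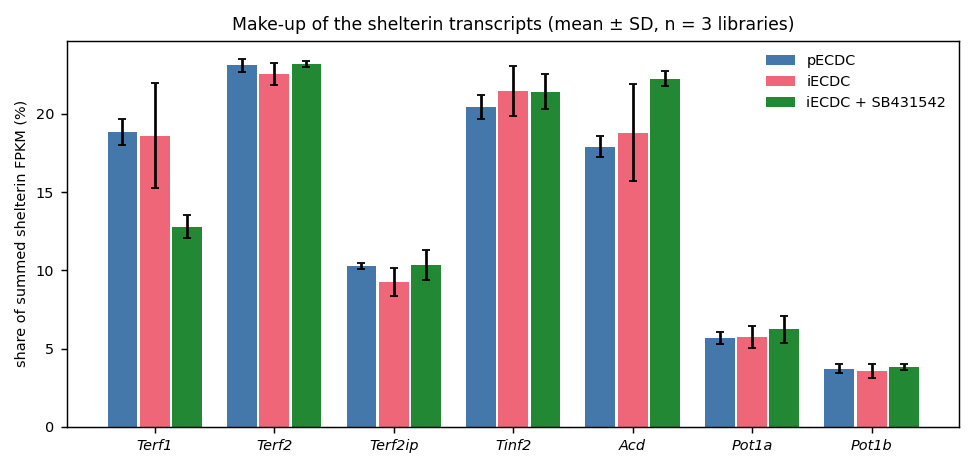
Share of each of the 7 shelterin genes in their summed FPKM (percent, vertical axis from 0), as mean ± SD of 3 libraries in pECDCs (blue), iECDCs (red) and treated cells (green). The Terf1 bar is at 18.9% in pECDCs, 18.6% in iECDCs and 12.8% in treated cells, and the Acd bar is highest there, at 22.2%.

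By level, Dkc1 was the most abundant of the 10 genes in every group and Pot1b the least. In pECDCs the order by mean FPKM was Dkc1 (17.8), Terf2 (7.41), Tinf2 (6.55), Rtel1 (6.33), Terf1 (6.05), Acd (5.75), Terf2ip (3.29), Tert (2.47), Pot1a (1.82) and Pot1b (1.20). There the libraries of Rtel1 and Terf1 overlapped, as did those of Terf1 and Acd, whereas every Rtel1 value was above every Acd value, and Tert stood above Pot1a. In iECDCs the order was Dkc1 (24.3), Terf2 (7.32), Tinf2 (6.97), Rtel1 (6.62), Acd (6.08), Terf1 (6.07) and Terf2ip (3.00), and Tert, at 1.53 FPKM, came between Pot1a (1.86) and Pot1b (1.16), and these did not separate beyond the spread of Tert. In treated cells the order was Dkc1 (12.9), Terf2 (7.71), Acd (7.39), Tinf2 (7.12), Rtel1 (6.08), Terf1 (4.25), Terf2ip (3.43) and Pot1a (2.07), and Tert (1.28) and Pot1b (1.27) did not differ beyond their spread.

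The other proteins of the box H/ACA core had the same order of groups as Dkc1. Nhp2 had 128, 132 and 132 FPKM in pECDCs, 175, 165 and 184 FPKM in iECDCs, and 63.8, 141 and 62.0 FPKM in treated replicates 1, 2 and 3. Nop10 had 42.3, 42.9 and 42.0 FPKM in pECDCs, 48.7, 46.6 and 43.8 FPKM in iECDCs, and 23.1, 46.5 and 27.2 FPKM in treated cells. Gar1 had 31.8, 32.3 and 31.5 FPKM in pECDCs, 36.6, 35.2 and 36.4 FPKM in iECDCs, and 12.8, 26.0 and 13.4 FPKM in treated cells. As for Dkc1, treated replicate 2 was the highest treated library for all 3 genes, and for Nhp2 and Nop10 it lay above every pECDC library.

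Nhp2 was higher in iECDCs than in pECDCs (log2 fold change 0.40, edgeR adjusted p = 0.00293), while Gar1 (0.16, adjusted p = 0.0914) and Nop10 (0.12, adjusted p = 0.270) did not pass by edgeR. In treated cells against iECDCs, Gar1 fell by 1.04 and Nhp2 by 0.97 on the log2 scale (edgeR adjusted p of 0.0179 and 0.0396), and Nop10 stood at -0.51 (edgeR adjusted p = 0.130). The Gar1 and Nhp2 calls were lost when iECDC replicates 1, 2 or 3 or treated replicates 1 or 3 were left out, with edgeR adjusted p of up to 0.0659 for Gar1 and 0.132 for Nhp2. Against pECDCs, treated cells had lower Gar1 (log2 fold change -0.86, edgeR adjusted p = 0.0366), a call lost without any 1 of the pECDC libraries or without treated replicate 1 or 3 (edgeR adjusted p of up to 0.107). The summed proliferation genes, a list of 8 that includes Mki67, Pcna and Cdk1, stood at 289, 297 and 402 FPKM as the lowest, median and highest treated library, and treated replicate 2 was also the highest for Pcna (138 FPKM against 83.9 and 90.2). The list did not move together: Mki67 had 36.9, 35.2 and 37.2 FPKM in treated replicates 1, 2 and 3, with replicate 2 the lowest, against 27.5 to 36.1 FPKM in iECDCs, and Top2a averaged 57.9 FPKM in treated cells against 54.7 FPKM in iECDCs. The part of cell proliferation in the Dkc1, Nhp2 and Gar1 values was not tested. In iECDCs the proliferation sum ranged from 377 to 415 FPKM and in pECDCs from 329 to 338 FPKM.

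**Figure D4:**
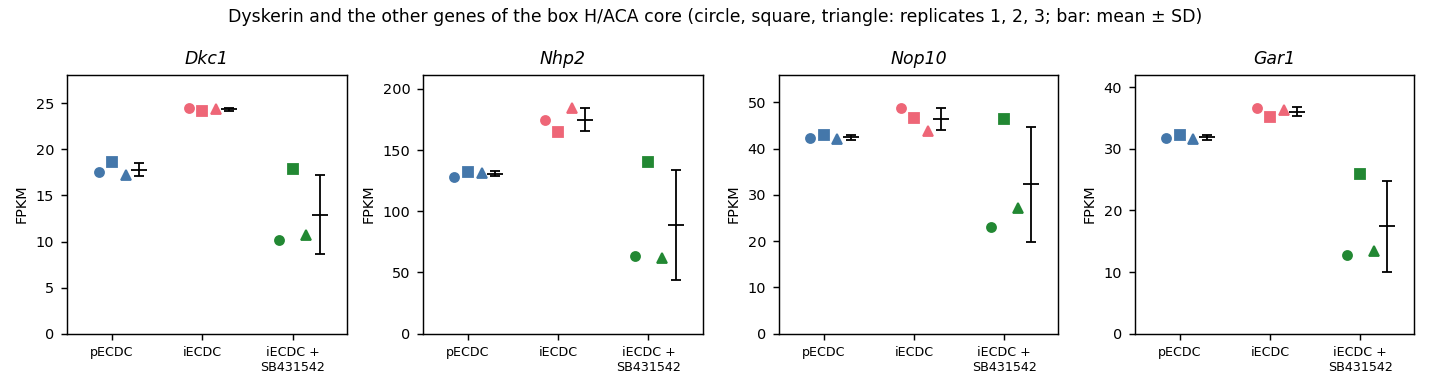
FPKM of Dkc1, Nhp2, Nop10 and Gar1 (vertical axes from 0) in each library, with circles, squares and triangles for replicates 1, 2 and 3 and bars for the mean ± SD (n = 3). In every panel treated replicate 2 (square) stands well above treated replicates 1 and 3, for Gar1 at 26.0 against 12.8 and 13.4.

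Of the telomerase assembly and telomere maintenance genes outside the 10 (93 genes found in 5 lists), 86 were tested. In iECDCs against pECDCs 9 were higher (7.21% of all genes tested were) and 1 lower (9.21% of all), with a median log2 fold change of 0.03 against 0.00 over all genes. Wrap53 (TCAB1), which carries telomerase to Cajal bodies, passed narrowly (log2 fold change 0.28, edgeR adjusted p = 0.0488) and kept its call in 4 of 15 alternative settings. The largest increases were of Ercc1 (0.59), Nhp2 (0.40), Papd5 (0.40), Exo1 (0.39) and Rpa2 (0.38), which encode a nuclease subunit, the H/ACA protein, a poly(A) polymerase that acts on Terc, an exonuclease that resects DNA ends and a subunit of the single-strand binding complex RPA. Trp53bp1, a DNA damage response gene, fell by 0.24 on the log2 scale and was the only decrease. The edgeR adjusted p of these 6 ranged from 0.00293 to 0.0420. Ercc1 kept its call in 11, Papd5 in 8 and Trp53bp1 in 5 of 15 alternatives. Over these alternatives the log2 fold change of Ercc1 ranged from 0.39 to 0.71. Its level was 17.1 FPKM in iECDC replicate 3, against 11.8 and 11.2 FPKM in iECDC replicates 1 and 2.

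In treated cells against iECDCs, 7 of the 86 were higher (16.0% of all genes tested were) and 17 lower (14.0% of all), with a median log2 fold change of -0.16 against 0.00 over all genes. The largest decreases were of Pinx1, a telomerase-binding protein (-1.08, edgeR adjusted p = 0.00863), of Gar1 and Nhp2 as above, of Fen1, a flap endonuclease (-0.92, edgeR adjusted p = 0.0105), and of Papd5 (-0.82, edgeR adjusted p = 0.0102). The largest increases were of Nr2c2, a nuclear receptor (0.73), Kmt5c, a histone H4 methyltransferase (0.73), Tep1, a telomerase-associated protein (0.65), Wrn, a RecQ helicase (0.61), and H3f3a, which encodes the replacement histone H3 variant (0.59), with edgeR adjusted p of 0.00504 to 0.0312. Kmt5c kept its call in 12 and Wrn in 10 of 16 alternatives.

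Against pECDCs, 9 of the 86 were higher in treated cells (17.9% of all genes tested were) and 16 lower (17.0% of all, so the lower count was near the background), with a median log2 fold change of -0.14 against 0.01 over all genes. Pinx1 (-0.98), Fen1 (-0.87), Gar1 (-0.86), Gnl3 (-0.73) and Naf1 (-0.61) had the largest decreases, where Gnl3 encodes nucleostemin and Naf1 a factor for assembling the box H/ACA core. Wrn (0.54), H3f3a (0.50), Nr2c2 (0.47), Kmt5c (0.46) and Tep1 (0.45) had the largest increases. These 10 had edgeR adjusted p of 0.00311 to 0.0424, and Kmt5c kept its call in 6 and Wrn, Tep1 and Gar1 each in 10 of 15 alternatives. The CST complex, which works with shelterin at the 3′ overhang, did not pass in any comparison: Ctc1 had 8.01, 8.84 and 9.02 mean FPKM in pECDCs, iECDCs and treated cells, Stn1 had 5.36, 5.19 and 6.15, and Ten1 had 4.01, 4.02 and 3.99. Terc had 0 to 3 counts per library and could not be tested. It is at or below the floor of 3 counts, and no level is read from it.

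Over the 9 libraries, the genes whose log2 CPM values were most alike to each member are given as a description, since all share the same libraries and the same differences between groups. For Tert they were 1110059G10Rik (Pearson r 0.98), Atp6v1d and Cxxc4 (both 0.98). For Dkc1 they were Nifk (0.997), Gclm (0.995) and Dbf4 (0.995), and for Terf1 they were Atp6v1g1, Cbx1 and Rab7 (each 0.98). Acd was most like 2810408A11Rik (0.98), Mrnip (0.98) and Ddost (0.97), and Rtel1 most like Nubp1 (0.98), Klhl23 (0.97) and Sumo3 (0.96). Terf2 was most like Gm28710 (0.94), Yod1 (0.92) and Lgals3 (0.92), Terf2ip most like Baz2a (0.96), Tsga10 (0.96) and Harbi1 (0.96), and Tinf2 most like Cd2bp2 (0.95), Eif4ebp1 (0.91) and Mrps35 (0.90). Pot1a was most like Macf1 (0.94), Fancd2 (0.94) and Ahi1 (0.93), and Pot1b most like Rdh12 (0.93), Fbxl5 (0.93) and Ugt1a6a (0.91).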

How the data were processed

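RNA was extracted with Trizol and made into libraries with the TruSeq kit, per the labels, whereas the study's methods name other kits, so the kit is uncertain. The submitters' processing notes name TopHat2 (2.0.9), Bowtie2 (2.0.6) and build mm9, while the coordinates of 53499 of 54532 genes in the table match GENCODE M21 on GRCm38, including all 10 members, and coordinates are given on GRCm38. The counting program is not given in the sources used here. The authors deposited raw counts and FPKM values per gene for 9 libraries, and FPKM were used for levels. Columns of the authors' own comparisons (group means, log2 fold changes, p-values) were not used. The members and gene lists were chosen with earlier results of these data known.

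Differences were fitted on the counts by edgeR (version 4.0.16, R 4.3.3; TMM, filterByExpr with a minimum count of 10 and a total of 15, quasi-likelihood test, the 2 compared groups only, Benjamini-Hochberg over all tested genes, threshold 0.05). The script was tested on simulated data. Alternatives were DESeq2 1.42.0, limma 3.58.1 on log2(FPKM + 1) and log2(FPKM + 0.1), other scaling, filters, all 9 libraries, a replicate block and leaving out libraries. Named were all 10 members, the telomerase and CST core genes, the 5 largest changes each way in the 5 lists, and the 3 genes most alike to each member. The main fit did not pair samples by replicate number.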

Additional observations from a re-analysis of the deposited data

How the results depend on the processing

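No fold change of the members reversed a call in any alternative. For the members called between iECDCs and pECDCs (2), the fit of all 9 libraries gave 0, limma on log2(FPKM + 0.1) gave 1, and leaving out libraries gave 1 to 2. That limma fit called 1934 of all 13752 genes tested. Leaving out any 1 pECDC library or iECDC replicate 2 gave 1 member, and these fits called 1036 to 1829 of 13956 to 14067 genes tested. The genes of the 5 lists (10) came to 0 with all 9 libraries and 3 to 26 without single libraries. The fit of all 9 libraries called 671 of all 14210 genes tested. The 26 came without iECDC replicate 3, where 4467 of all 14095 genes tested were called. For treated cells against iECDCs (1 member), DESeq2, no filter on low counts and all 9 libraries each gave 2, leaving out libraries gave 0 to 2, and leaving out iECDC replicate 3 and treated replicate 2 together, chosen after seeing the data, gave 3. DESeq2, no filter and all 9 libraries called 4461 of 25160, 4840 of 25160 and 5850 of 14210 genes fitted. The 0 came without iECDC replicate 1 or 2 or treated replicate 1 or 3. In those fits 1707 to 1886 of 13774 to 13983 genes tested were called. The list genes (24) came to 14 with the replicate block, where 3038 of all 13559 genes tested were called. They came to 7 to 43 without single libraries and 63 without those 2. The fit without those 2 libraries called 8951 of all 13867 genes tested. Without treated replicate 2 alone, where 43 list genes were called, 7001 of all 13955 genes tested were. For treated cells against pECDCs, 3 members became 2 to 5 and 25 list genes 7 to 62 when libraries were left out. The 2 came without pECDC replicate 1 or 2, where 2453 of 14348 and 2522 of 14413 genes tested were called. The 5 and the 62 came without treated replicate 2, where 9188 of all 14345 genes tested were called. Tert lost its call between iECDCs and pECDCs with all 9 libraries (edgeR adjusted p = 0.0815). The cause of these shifts was not tested.

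Whether the replicate numbers pair the samples was not settled. Correlations of deviations from the group means between same-numbered samples ranged from -0.21 to 0.03. With 3 libraries per group, 2 libraries that stood apart weigh on these values, so they cannot show that pairing is absent. The block left the counts of called members at 2, 1 and 3 in the 3 comparisons, where it called 1791 of 13752, 3038 of 13559 and 3886 of 14015 genes tested. Over all genes, the calls between iECDCs and pECDCs (2258) were 671 with all 9 libraries and ranged from 1036 without pECDC replicate 2 to 4467 without iECDC replicate 3. Those between treated cells and iECDCs (4061) ranged from 1707 without iECDC replicate 1 to 7001 without treated replicate 2, with 8951 without both libraries that stood apart, and those against pECDCs (4881) ranged from 2453 without pECDC replicate 1 to 9188 without treated replicate 2. On counts in place of FPKM the ratio of Pot1b to Pot1a was 0.400 in pECDCs, 0.384 in iECDCs and 0.377 in treated cells. Gene lengths of 5268 bases for Pot1b and 8669 for Pot1a fix this shift, so it tests nothing further.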
